A study of Mus musculus with 18 samples.

Results

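The comparison described here is that of the high polysome with the monosome in mouse embryonic stem cells (ESCs) that lack Ddx6. Its members were chosen by their labels. They are the 3 high polysome and the 3 monosome libraries of Ddx6 knockout (KO) cells, 6 of the 18 libraries in the series, matched by the sucrose gradient they came from. The 3 low polysome libraries of the same gradients are given beside them to show where along the gradient an RNA is lost or gained. Genes were kept at 3 or more CPM (counts scaled to library size with TMM factors) in at least 3 of the 18 libraries, which left 12705 of 51467 genes. KO gradient 1 is from clone 1, and KO gradients 2 and 3 are from clone 2, so the 3 gradients stand for only 2 edited lines. All cells were V6.5 ESCs grown with LIF, 15% serum and 2i (a pair of kinase inhibitors), and all were given 100 µg/ml cycloheximide for 2 min to hold ribosomes on the message. The wild-type (WT) gradients, used only for contrast, had the same medium and drug and an intact Ddx6. Per the labels the low polysome holds messages with 2 to 4 ribosomes and the high polysome those with 4 or more.

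DDX6 is a DEAD-box helicase that holds mRNAs in a repressed state, in contact with the decapping machinery and with the CCR4-NOT deadenylase that microRNAs recruit. A polysome is an mRNA carrying several ribosomes. In a sucrose gradient an mRNA moves further the more ribosomes it carries, so a high ratio of high polysome to monosome, which the study called the translation level, is read as more ribosomes per message. The number of ribosomes that fit on a message is limited by the length of its coding region, and how often ribosomes start on it sets how close it comes to that limit. Below, a gene is called heavy when its high polysome level exceeded its monosome level, and light when it fell short of it. All values are relative within a fraction, so they do not say how much RNA each fraction held.

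Total gene counts were 7537656 to 7811071 in the KO monosome libraries, 7393509 to 11474550 in the low polysome and 9195494 to 10236192 in the high polysome. Mitochondrial transcripts took 0.632% to 1.003% of monosome counts and 0.061% to 0.081% of high polysome counts. The first principal component of the 9 KO libraries held 67.3% of the variance and ordered them from monosome through low to high polysome, and the second held 16.2% and set the low polysome apart. All 10 ESC markers examined were expressed, with a summed level of 3110 to 4920 CPM in the 9 KO libraries. The 7 fibroblast markers summed to 5.77 to 11.1 CPM and the 5 primitive endoderm markers to 2.35 to 8.87 CPM. The 4 markers of primed epiblast summed to 32.6 to 48.0 CPM in the monosome and 65.3 to 80.1 CPM in the high polysome. Of these, Dnmt3b was the highest, with a mean of 33.9 CPM, and Fgf5 was at 0 in all 9 libraries. The 4 trophoblast markers summed to 9.2 to 22.7 CPM, with Krt7 highest at a mean of 9.1 CPM. The 4 mesoderm and neural markers summed to 25.9 to 69.4 CPM, with Sox1 highest at a mean of 41.8 CPM. Ddx6 itself was measured at 57.3, 26.6 and 17.5 CPM in the monosome of gradients 1 to 3 and at 55.1, 9.64 and 13.0 CPM in the high polysome. In the WT gradients it was at 143, 155 and 160 CPM in the monosome and 186, 200 and 182 CPM in the high polysome. The clones carry an insertion or a deletion within an exon, and counts at the 3′ end of the gene do not test that edit. Clone 1 kept more of this transcript than clone 2 in each fraction. What remained was lower in the high polysome by limma (log2 difference -0.54, SE 0.20, adjusted p = 0.0225). This call rested on gradient 2, without which the value was -0.187 and not called, and it was also lost without the block.

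The first question was which RNAs sit on many ribosomes and which on few in cells without DDX6. Of 12705 genes, 4549 (35.8%) were heavy and 4325 (34.0%) were light with adjusted p values below 0.05 when tested by limma, with each gradient treated as a block. Of these, 2060 heavy and 2762 light genes differed by more than 1 on the log2 scale, so large differences were more often losses from the high polysome. The lowest estimate was -7.42 and the highest was 3.25, with 5% of all genes below -2.42 and 5% above 1.51. The median estimate was 0.028 with a median SE of 0.18. Of the 8874 genes called, 8712 (98.2%) had the same sign in all 3 gradients, against 34.0% of the genes not called. The calls were made on these same gradients, so a shared sign is no separate evidence. Across genes, Spearman's rho between the ratios of pairs of gradients was 0.873, 0.851 and 0.907, as a description. The gradients share clone 2 in the last of these pairs. Counts of heavy and light genes in the lists below are to be read against 35.8% and 34.0% over all genes tested.

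Among the 12 protein-coding genes with the highest estimates, taken from those with at least 20 CPM and the same sign in every gradient, were Igf1r, Pkd1, Crebbp, Gpc4, Kmt2d, Ptprf, Piezo1, Aplp2, Igsf9b, Slc2a3 and AI464131. The estimates of these 11 ran from 2.45 to 2.68. Igf1r is the receptor for insulin-like growth factor, Pkd1 encodes polycystin, Gpc4 a glypican of the cell surface, Ptprf a receptor tyrosine phosphatase, Piezo1 a mechanosensitive channel and Slc2a3 a glucose transporter. Crebbp is a histone acetyltransferase and Kmt2d a histone methyltransferase. Igf1r (ENSMUSG00000005533.10, chromosome 7, 67952827 to 68233668 on GRCm38) was measured at 14.1, 18.2 and 19.7 CPM in the monosome and at 98.3, 117 and 118 CPM in the high polysome. This was a difference of 2.68 (SE 0.15, limma adjusted p = 2.238e-10), or 6.42-fold. Slc2a3 (ENSMUSG00000003153.10, chromosome 6, 122727809 to 122801640) is much more abundant, at 1370, 1400 and 1290 CPM in the monosome and 6580, 7870 and 8530 CPM in the high polysome (2.49, SE 0.12, limma adjusted p = 7.968e-11). It was among the 5 most abundant genes of the high polysome, with Actb, Serbp1, Cdh1 and Sparc. All 5 of these were heavy.

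At the other end stood Snhg11, Prrt2, mt-Nd4, Gm47283, Frs3, Lime1, Ost4, Cnpy1, Wsb1, Tagap1 and Pabpn1, with estimates from -4.69 to -3.82. Snhg11 (ENSMUSG00000044349.15, chromosome 2, 158375638 to 158386145), a host of small nucleolar RNAs that the annotation types as protein-coding, was measured at 375, 334 and 332 CPM in the monosome and at 17.4, 7.58 and 16.6 CPM in the high polysome. This was a difference of 25.9-fold (-4.69, SE 0.19, limma adjusted p = 1.281e-11). Pabpn1 encodes the nuclear poly(A)-binding protein, and it went from 77.0, 66.2 and 73.2 CPM in the monosome to 6.21, 5.31 and 3.87 CPM in the high polysome. Counting by gene does not show which transcript of a gene was measured. The position of Frs3 varied between gradients more than that of the others, with log2 ratios of -2.97, -3.39 and -5.33 and an SE of 0.73.

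**Figure D1:**
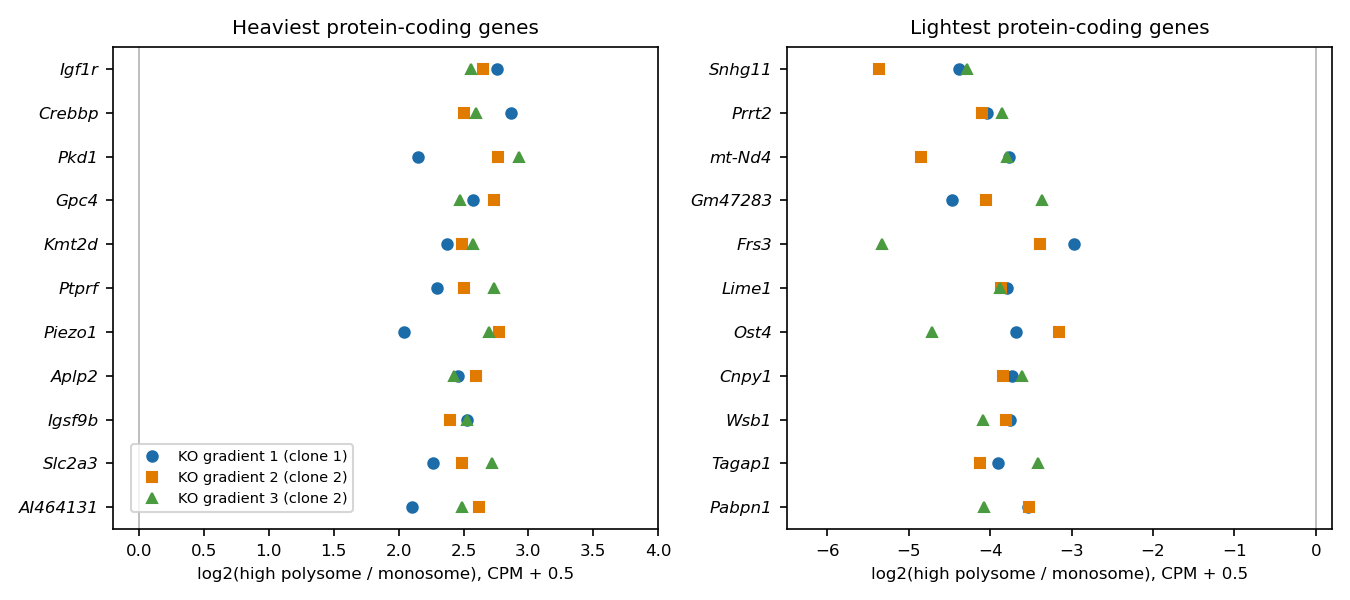
Log2 ratio of high polysome to monosome level (TMM-scaled CPM plus a pseudocount of 0.5) in each KO gradient, for 11 of the 12 heaviest and 11 of the 12 lightest protein-coding genes by the estimate. Each point is 1 gradient, and clone 1 is the circle. Points run from 2.04 to 2.93 on the heavy side and from -5.37 to -2.97 on the light side. The choice of genes required the same sign in every gradient, so no point could cross 0.

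The 5 most abundant RNAs of the monosome were Mt2, Gpx1, Cd63, Rps14 and Rps3. Mt2 encodes metallothionein, a metal-binding protein of very short coding length (186 nt), and it stood at 16200, 14100 and 14000 CPM in the monosome and 1810, 1860 and 1740 CPM in the high polysome (-3.03, SE 0.12, limma adjusted p = 1.281e-11). Gpx1 encodes a glutathione peroxidase that carries selenocysteine, and it fell from 9070, 6410 and 6730 CPM to 895, 908 and 1100 CPM (-2.93, SE 0.13, limma adjusted p = 2.854e-11). Cd63, which encodes a tetraspanin of late endosomes, did not follow this order. It was measured at 4380, 3980 and 5120 CPM in the monosome, 7200, 11700 and 8640 CPM in the low polysome and 4680, 3440 and 4450 CPM in the high polysome. Its monosome and high polysome levels overlapped (-0.11, SE 0.18, limma adjusted p = 0.613), while the low polysome was above both.

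**Figure D2:**
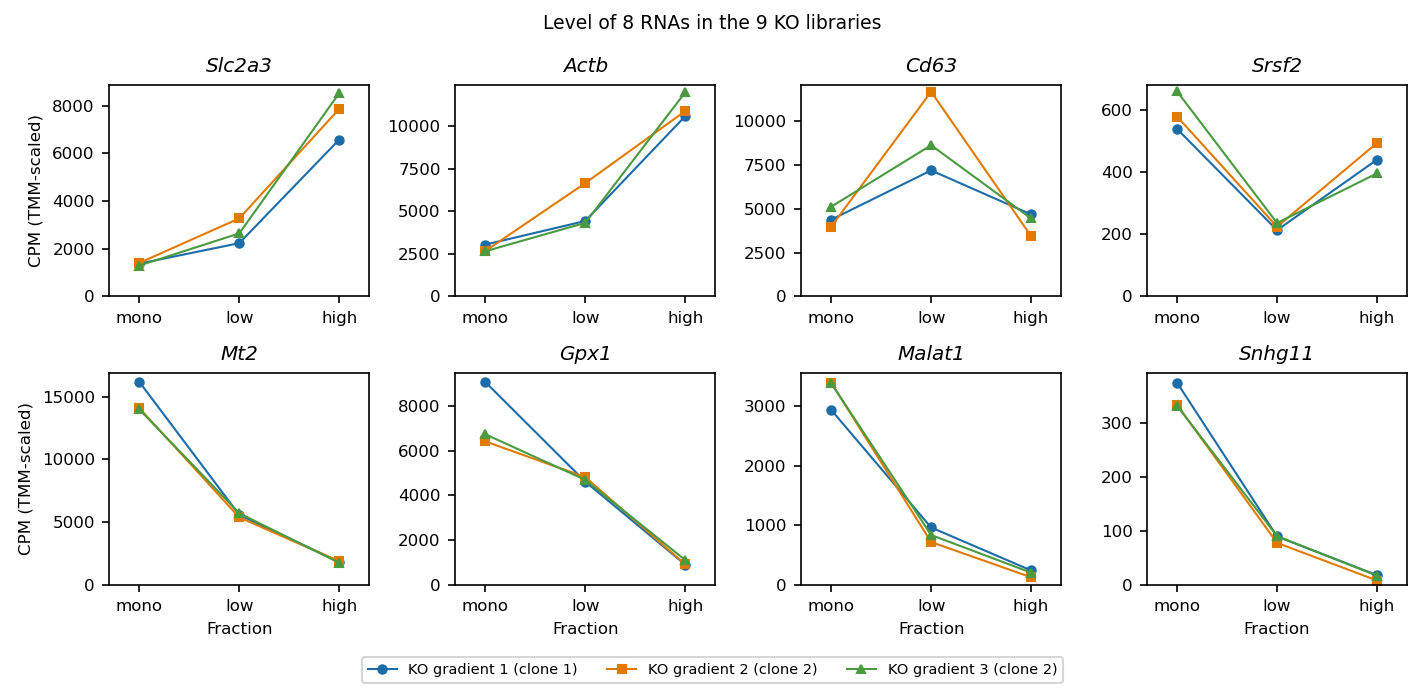
Level of 8 RNAs (TMM-scaled CPM, linear axis from 0) in each fraction of the 3 KO gradients, each line being 1 gradient. Slc2a3 and Actb rise at each step, Cd63 peaks and Srsf2 dips in the low polysome, and Mt2, Gpx1, Malat1 and Snhg11 fall at each step.

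The low polysome libraries show at which step RNAs were gained or lost. Against the monosome, 2769 genes (21.8%) were higher in the low polysome and 2784 (21.9%) lower. From the low to the high polysome, 3796 (29.9%) were higher and 3771 (29.7%) lower. Genes that rose at both steps numbered 940 (7.4%), and genes that fell at both numbered 1150 (9.05%). In 713 genes (5.61%) the low polysome was below both neighbours, and in 645 (5.08%) it was above both. These 2 comparisons share the low polysome libraries. Counts or medians at the steps are given below for the lists in which they add to the whole distance.

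Ribosomal protein mRNAs were light as a class. Ribosomal proteins, the elongation factors and some other parts of the translation machinery are encoded by TOP mRNAs, which begin with a C followed by a run of pyrimidines, the 5′ terminal oligopyrimidine tract. Growth signals through mTOR switch these messages between an unloaded and a loaded state. Of 50 large subunit genes tested, 34 were light and 2 heavy, with a median of -0.93, and of 33 small subunit genes 29 were light and 2 heavy, with a median of -1.03. The median of all genes tested was 0.028. Per gradient the large subunit medians were -0.95, -0.85 and -1.11 and the small subunit medians -1.10, -0.86 and -1.32. Both heavy members of the large subunit list, Rpl10l (1.58) and Rpl7l1 (1.08), are paralogs rather than the usual subunits. Rpl10l was measured at 188, 211 and 195 CPM in the monosome and 500, 583 and 716 CPM in the high polysome. Large subunit genes took 1.62% to 1.98% of monosome counts and 0.896% to 0.934% of high polysome counts.

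By the list medians, ribosomal protein mRNAs lost more at the first step than at the second. From monosome to low polysome, 33 of the 50 large subunit genes and 28 of the 33 small subunit genes fell, and the medians were -0.74 and -0.82. From low to high polysome the medians were -0.11 and -0.27, with 10 large subunit genes higher and 17 lower, and 4 small subunit genes higher and 16 lower. In 8 large and 3 small subunit genes the low polysome was below both other fractions. Rpl8 shows this shape, at 1870, 1470 and 1660 CPM in the monosome, 1050, 1380 and 1200 CPM in the low polysome and 1810, 1960 and 2280 CPM in the high polysome. Its low polysome level was below all 6 others, while its other fractions overlapped (0.28, limma adjusted p = 0.0585). Without gradient 1 it was called heavy, at 0.439.

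Among the 77 ribosomal protein genes left once 6 paralogs were set aside, position followed coding length. The 9 with a coding region of up to 300 nt were light in all cases, with a median of -2.53, and the 46 from there to 600 nt had a median of -1.07, with 38 light. The 22 longer ones had a median of -0.57, with 12 light, and 9 of these 22 had the low polysome below both neighbours. The step of the loss differed with length. Medians at the first and second step were -0.894 and -1.79 up to 300 nt, -0.72 and -0.305 up to 600 nt, and -0.914 and 0.407 above. Spearman's rho between coding length and ratio across these 77 genes was 0.577, 0.625 and 0.573 in the 3 gradients, as a description. Rpl41 (ENSMUSG00000093674.7), with 78 coding nt the shortest, fell from 1200, 889 and 1220 CPM to 71.7, 66.8 and 106 CPM (-3.77, SE 0.15, limma adjusted p = 1.281e-11). Only uniquely aligned reads were counted, so genes of this class, which have many processed copies in the genome, are undercounted to an uncertain degree.

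Elongation factors and other TOP mRNAs shared the first step and not the second. Of 23 tested, 14 fell and 1 rose from monosome to low polysome (median -0.65), and 15 rose and 2 fell from low to high polysome (median 0.59). Over the whole distance 9 were heavy and 7 light, with a median estimate of -0.050. The medians of the gradients' own ratios were 0.090, 0.12 and 0.056, and the median estimate also changed sign between settings, so the list as a whole has no settled direction. In 9 of 23 the low polysome was below both neighbours. Eef2, which moves the ribosome along the message, was at 1750, 1130 and 1240 CPM in the monosome, 473, 698 and 469 CPM in the low polysome and 495, 682 and 793 CPM in the high polysome. Eef2 was light (-1.07, SE 0.19, limma adjusted p = 0.000119), as was Pabpc1, the cytoplasmic poly(A)-binding protein (-1.91, limma adjusted p = 6.888e-09). Eef1d, a subunit of the exchange factor for eEF1A, was the heaviest of the list at 1.59 (limma adjusted p = 8.321e-08). The lightest was Gas5, a non-coding member, at -3.49 (limma adjusted p = 1.102e-11).

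Annotated starts of the genes in the 3 lists, most of which fell at the first step, were examined for the tract. The lists hold kinds of genes known for TOP mRNAs. A higher share with a tract among them is therefore no finding of these data. In the RefSeq table of starts on GRCm38.p6, 79 of the 106 genes of these lists had a start, and 52 of the 79 (65.8%) had a C followed by 5 or more pyrimidines between 10 bases before and 30 bases after it, read on the strand of the gene. Counted by gene in the same way, 31.6% of the 9594 tested genes with a start had the tract. Counted by start, it was found at 9053 of 32851 in the whole table (27.6%). The run could begin anywhere in this window, so a match does not show that the message begins with it. In the windows below its offset from the start ran from -10 (Rps27l) to 15 (Eef2) bases. A separate score for a TOP start was met by far fewer genes, 9.09% to 15.2% in the 3 lists, against 2.36% over all genes tested. The windows of 30 bases that follow are those of 8 abundant listed genes with a tract, shown so that the run can be seen. Not every start was open to this choice, so more abundant genes with a tract may be missing. The windows are printed 5′ to 3′ with the tract in capitals. A match is a description of these letters only.
Rack1, chr11:48800345-48800374, plus strand: cggaggccgCTCTTTCTTTTTCTCCacagg
Rps21, chr2:180257368-180257397, plus strand: gaggacccgCCCTCCTgcccaatagtgctg
Rps26, chr10:128626482-128626511, minus strand: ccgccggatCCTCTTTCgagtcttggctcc
Rps10, chr17:27635227-27635256, minus strand: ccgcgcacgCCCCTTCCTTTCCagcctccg
Eef2, chr10:81176637-81176666, plus strand: gtcagcggtCTCTTCCgccgcagccgccgc
Rps9, chr7:3704027-3704056, plus strand: ccgccttgtCTCTCTTTgtctcgggcctga
Rps19, chr7:24884910-24884939, plus strand: tgtggagggCTCTCCCacgcggtcaccacg
Rps27l, chr9:66946067-66946096, plus strand: ctctccactCCTCCCCgccgcctctatccc

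Of these 8 genes 7 were light, Rack1 (-0.78), Rps21 (-2.53), Rps26 (-2.35), Rps10 (-0.62), Eef2 (-1.07), Rps19 (-1.10) and the paralog Rps27l (-3.34). Rps9 (0.32) was heavy, and in Rack1 and Rps9 the low polysome was below both other fractions. Listed genes with a tract had medians of -0.84 at the first step and -0.11 at the second, and the 27 without had -0.82 and 0.15. Among other protein-coding genes, the 2881 with a tract and the 6361 without had medians of 0.11 and 0.12 over the whole distance, and 6.0% and 6.1% of them had the low polysome below both neighbours.

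Initiation factors and aminoacyl-tRNA synthetases lay on the other side. Initiation factors, which bring the ribosome to the start codon, were heavy in 24 of 30 cases and light in 3, with a median of 0.85. Eif4g1, the scaffold of the cap-binding complex, rose from 292, 271 and 255 CPM to 740, 1110 and 987 CPM (1.78, SE 0.13, limma adjusted p = 4.148e-09). Eif1, a short factor for start codon choice, fell by 1.31 on the log2 scale (SE 0.11, limma adjusted p = 3.386e-08), and Eif5a, the most abundant member, was at 0.11 (limma adjusted p = 0.436). Of the 20 aminoacyl-tRNA synthetases, which load tRNAs with amino acids, 19 were heavy and the other was not called, with a median of 1.15. Gars was the heaviest, at 146, 128 and 128 CPM in the monosome and 510, 531 and 572 CPM in the high polysome (2.00, SE 0.13, limma adjusted p = 1.923e-09). This list moved at the second step, where 19 of 20 rose and the median was 1.18, against 0.23 at the first.

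Protein folding and turnover genes were heavy. All 8 subunits of the CCT chaperonin, the barrel that folds actin and tubulin, passed the test, with a median of 1.33 and with Cct7 highest at 1.80 and Tcp1 lowest at 0.65. Of 19 heat shock and endoplasmic reticulum chaperones, 18 were heavy and 1 light, with a median of 1.62. Calr, a calcium-binding chaperone of the endoplasmic reticulum, rose from 1160, 1360 and 1220 CPM to 4580, 5330 and 5610 CPM (2.05, SE 0.14, limma adjusted p = 3.326e-09). The exception was Hspe1, the short mitochondrial co-chaperone, which fell by 1.37 on the log2 scale (limma adjusted p = 9.488e-06). Of 37 proteasome subunits 33 were heavy and 2 light, with a median of 1.23 and medians of 1.20, 1.23 and 1.18 in the gradients. Psmd14, the deubiquitinase of the lid, was the highest at 1.89, and Psmb10, an immunoproteasome subunit, was the lowest at -1.16.

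Genes of glycolysis, cholesterol synthesis and solute transport were more often heavy than light. Of 14 glycolysis enzymes 13 were heavy and the other was not called, with a median of 1.45. Ldha, lactate dehydrogenase, rose from 126, 112 and 102 CPM to 420, 429 and 490 CPM (1.98, SE 0.12, limma adjusted p = 8.912e-10). Aldoa, the most abundant, was at 1.46 (limma adjusted p = 9.008e-07). Of 19 cholesterol synthesis genes, 15 were heavy and 1 was light, with a median of 1.02. Cyp51 was highest at 1.81 (limma adjusted p = 3.505e-09) and Mvk, mevalonate kinase, was the light member at -0.60 (limma adjusted p = 0.000168). The 193 solute carrier transporters had 93 heavy and 41 light members and a median of 0.41, and their lowest called member was Slc25a37, a mitochondrial iron carrier, at -3.78.

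**Figure D3:**
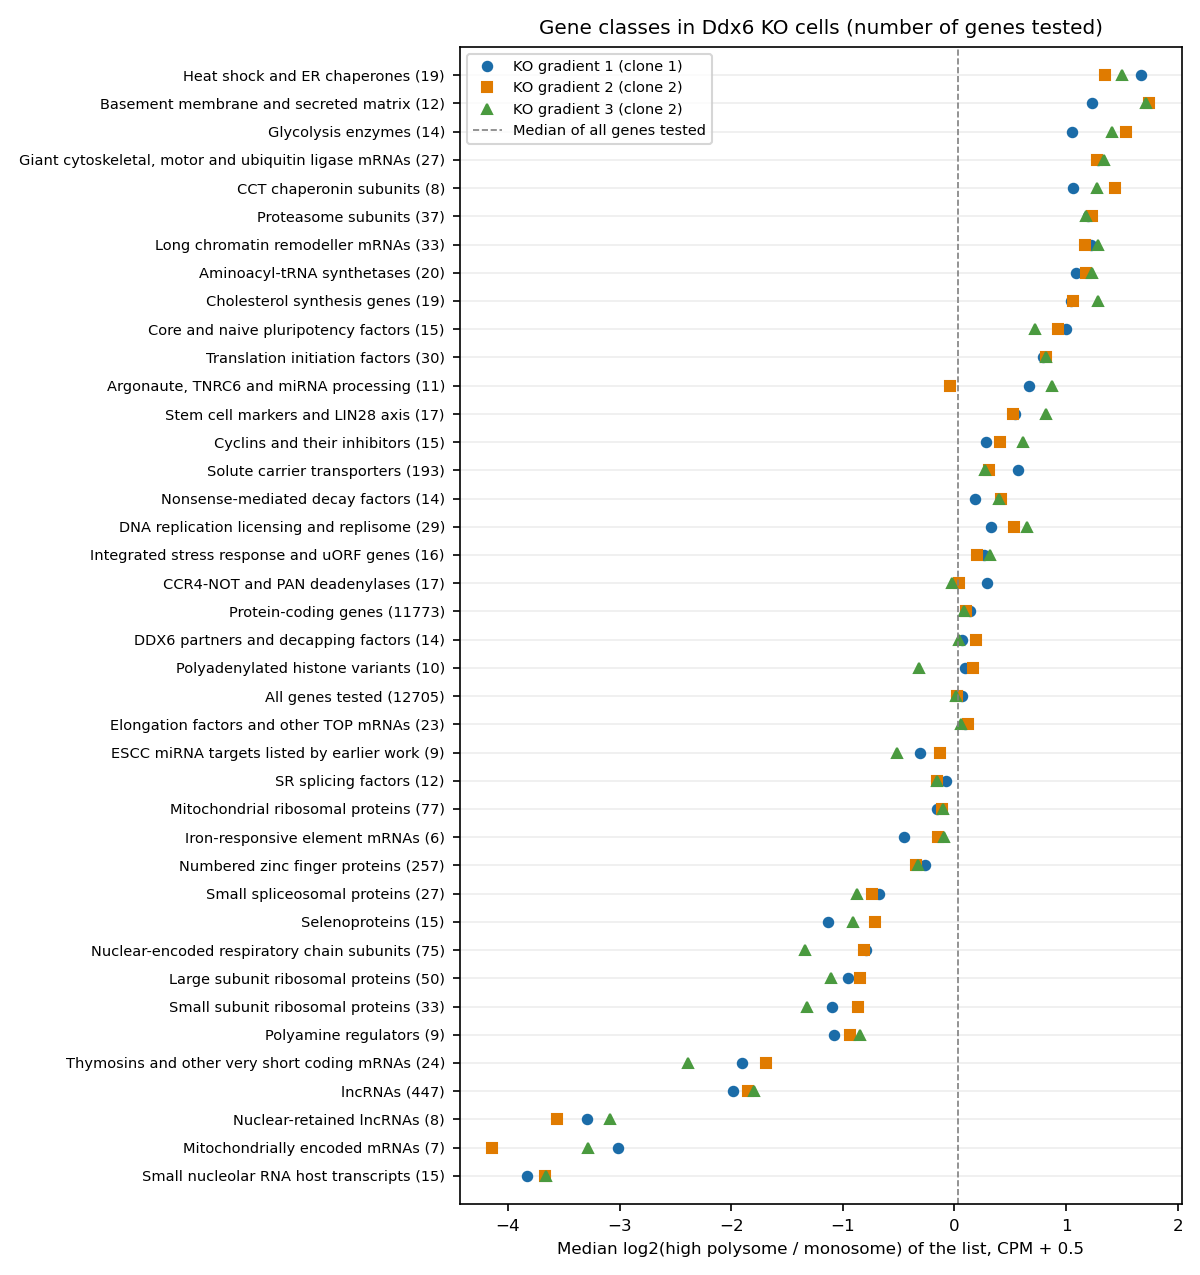
Median log2 ratio of high polysome to monosome level (CPM plus 0.5) of each gene list in each KO gradient, ordered by the median estimate, with the number of genes tested in brackets. The dashed line is the median of all 12705 genes (0.028), and the 3 gradients of most lists lie close together, from snoRNA host transcripts near -3.7 to chaperones near 1.5.

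Messages with very long coding regions were heavy. Of 33 genes of long chromatin remodellers 30 were heavy (median 1.23), and of 27 giant cytoskeletal, motor and ubiquitin ligase genes 24 were heavy (median 1.42), and the others of both lists were not called. Both lists moved at the first step, at which 29 of 33 and 26 of 27 rose, with medians of 0.98 and 0.99, and the second step added 0.32 and 0.21. Chd4, the helicase of the NuRD complex, rose from 317, 306 and 300 CPM to 1110, 1470 and 1560 CPM (2.15, SE 0.15, limma adjusted p = 2.375e-09). Ubr4, a giant ubiquitin ligase, went from 41.7, 44.4 and 37.3 CPM in the monosome to 156, 171 and 147 CPM in the low polysome and 148, 203 and 203 CPM in the high polysome. Most of its rise of 2.15 had thus taken place in the low polysome (1.94). All 12 basement membrane and secreted matrix genes were heavy, with a median of 1.55. Lamc1, the laminin gamma 1 chain, rose from 107, 129 and 117 CPM to 449, 799 and 654 CPM (2.39, SE 0.13, limma adjusted p = 3.001e-10).

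Genes of the ESC state were mostly heavy. Of 15 core and naive pluripotency factors 13 were heavy and 1 light, with a median of 0.90 and gradient medians of 0.995, 0.926 and 0.724. Tfcp2l1, a transcription factor of the naive state, was the highest, at 168, 191 and 181 CPM in the monosome and 723, 706 and 727 CPM in the high polysome (2.00, SE 0.11, limma adjusted p = 3.078e-10). Klf4, the most abundant factor, was at 865, 612 and 677 CPM and 730, 508 and 626 CPM, and these overlapped (-0.21, SE 0.13, limma adjusted p = 0.175). Prdm14 was the light one at -0.50 (limma adjusted p = 0.0142), with 8.63, 8.42 and 9.26 CPM in the low polysome against 15.0 CPM or more in the other 6 KO libraries. Its call was lost without gradient 1 (-0.384) or gradient 3 (-0.484). Of 17 stem cell markers and LIN28 axis genes 10 were heavy and 3 light, and the median was 0.54. Nr0b1 was highest at 1.80 (limma adjusted p = 2.645e-05) and Lin28b lowest at -1.72 (limma adjusted p = 5.055e-05). Dppa5a, the most abundant, had log2 ratios of -0.013, -0.55 and -1.80 in the 3 gradients and did not pass (limma adjusted p = 0.12).

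DNA replication genes had 16 heavy members of 29, 1 light member and a median of 0.39. Their shape was uneven, with 8 genes below both neighbours in the low polysome, 20 of 29 rising from the low to the high polysome and a median of 0.82 at that step. Mcm6, a subunit of the replicative helicase, rose from 109, 119 and 127 CPM to 363, 429 and 447 CPM (1.80, SE 0.10, limma adjusted p = 2.336e-10). Rpa3, the smallest subunit of the single-strand binding complex, was the light one, with 151, 100 and 168 CPM in the monosome and 79.4, 34.2 and 12.3 CPM in the high polysome (-2.04, SE 0.40, limma adjusted p = 0.000225). Of 15 cyclins and their inhibitors 8 (53.3%) were heavy and 2 (13.3%) light, against 35.8% and 34.0% over all genes tested. Cdkn1c, an inhibitor of the cell cycle, was the highest at 1.70 (limma adjusted p = 3.351e-06), or 1.37 and not called without the block, and 1.03 without gradient 1. Its level differed between the clones, with 17.9 CPM in the monosome of clone 1 and 4.34 CPM in both monosome libraries of clone 2.

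Messages for the respiratory chain were mostly light, those encoded in the mitochondrion and those encoded in the nucleus. The 7 mitochondrially encoded mRNAs that passed the filter, of 13 in the table, were light in all 7 cases, with a median of -3.48 and gradient medians of -3.01, -4.14 and -3.28. These are translated inside the organelle by its own ribosomes. mt-Co1, cytochrome oxidase subunit 1, was at 1660, 2430 and 2010 CPM in the monosome and 323, 220 and 185 CPM in the high polysome (-3.09, SE 0.24, limma adjusted p = 8.366e-09). The nuclear-encoded subunits of the respiratory chain, translated in the cytosol, were light in 50 of 75 cases and heavy in 16, with a median of -0.92. Sdha, the largest subunit of succinate dehydrogenase, was the heaviest at 1.99 (limma adjusted p = 3.253e-09) and Cox7c, a very short cytochrome oxidase subunit, the lightest at -3.53 (SE 0.70, limma adjusted p = 0.000262). These mRNAs were lost at the second step, where 46 of 75 fell and the median was -0.84, against -0.071 at the first. The 77 mitochondrial ribosomal protein genes had 24 heavy and 35 light members and a median of -0.19.

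Other classes of short messages were lost mainly at the second step too. Of 24 genes listed as very short coding mRNAs 21 were light and 1 heavy, with a median of -2.16. Tmsb4x, an actin-binding thymosin, fell from 1630, 1050 and 971 CPM to 109, 83.7 and 87.8 CPM (-3.68, SE 0.26, limma adjusted p = 3.600e-09). The heavy one was Ubb (2.01, limma adjusted p = 2.763e-08), a polyubiquitin gene whose coding region of 918 nt is not short. Of 27 small spliceosomal proteins 17 were light and 6 heavy, with a median of -0.78. Their medians were 0.22 from monosome to low polysome and -0.95 from low to high. Snrpg was the lightest at -2.73 and Snrpb, with a longer coding region, the heaviest at 1.67. Of 15 selenoproteins, which read a stop codon as selenocysteine, 8 were light and 2 heavy, with a median of -0.92. Selenow was the lightest at -3.23 and Txnrd1, thioredoxin reductase, the heaviest at 1.78.

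**Figure D4:**
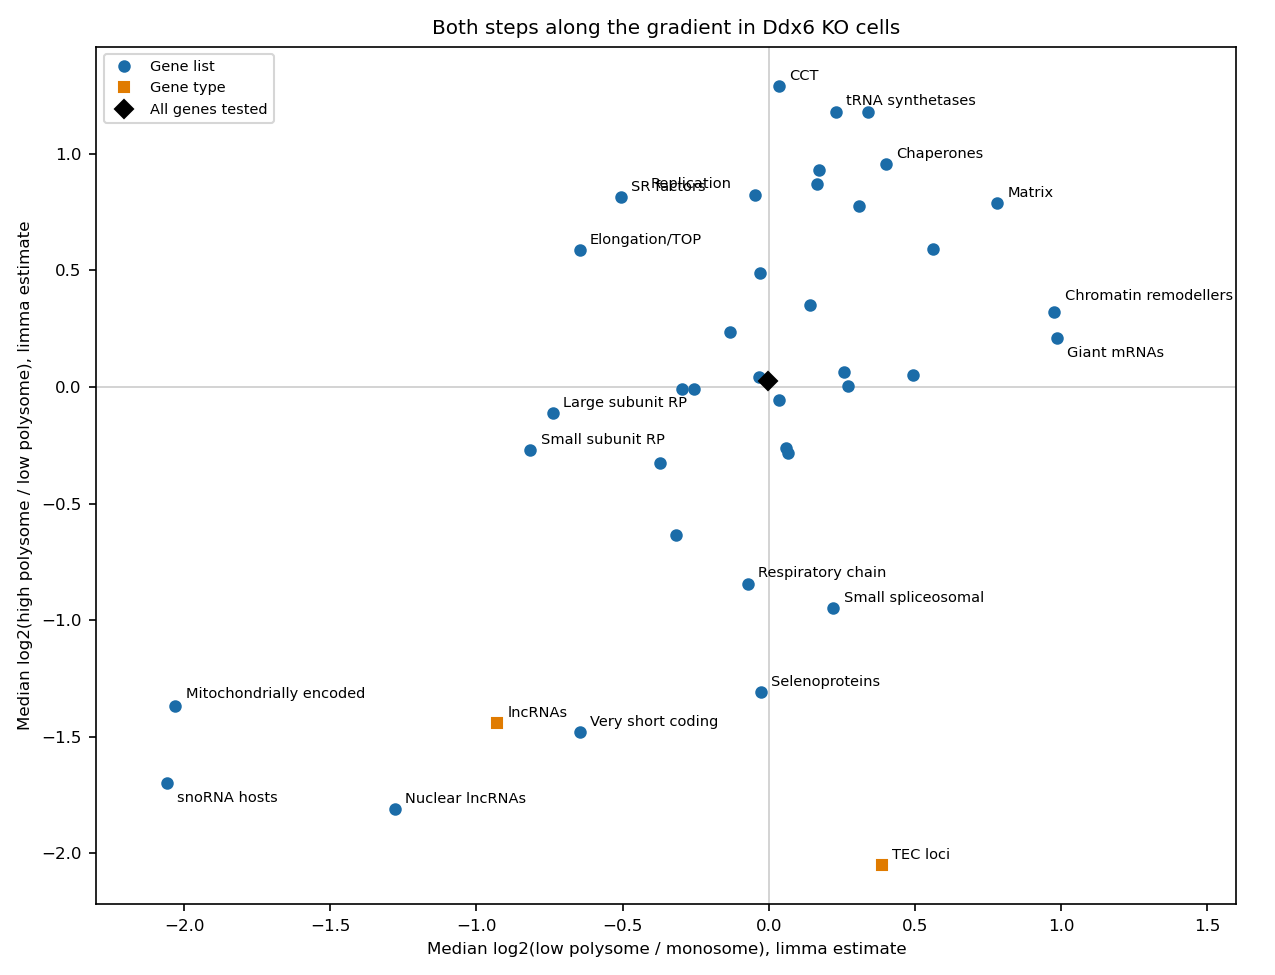
Median limma estimate of each gene list at the first step (low polysome against monosome, horizontal) and at the second (high against low polysome, vertical) in KO cells, with all genes tested as the diamond. Ribosomal protein lists lie to the left near 0 in height, TOP and SR lists in the upper left, giant and chromatin remodeller messages far to the right, and short coding lists below.

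Splicing factors of the SR family resembled the TOP list in shape. Of 12 tested 5 were heavy and 5 light, but 7 fell at the first step and 8 rose at the second, with medians of -0.51 and 0.81, and 4 had the low polysome below both neighbours. Srsf2 was at 539, 579 and 660 CPM in the monosome, 213, 224 and 236 CPM in the low polysome and 440, 494 and 396 CPM in the high polysome. Its low polysome level was below all other KO libraries, and its light call (-0.42, limma adjusted p = 0.0041) was lost without gradient 3 (-0.24). Srsf3 was the heaviest (0.92, limma adjusted p = 2.427e-06) and Srsf5 the lightest (-2.16, limma adjusted p = 5.856e-10).

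Genes known for regulated translation fell on both sides. Of 16 integrated stress response and upstream open reading frame (uORF) genes 8 (50.0%) were heavy and 5 (31.2%) light. Over all genes tested the shares were 35.8% and 34.0%. Ddit3, a stress transcription factor with a uORF, was the lightest, at 121, 62.0 and 75.9 CPM in the monosome and 22.1, 15.3 and 22.7 CPM in the high polysome (-2.07, SE 0.17, limma adjusted p = 2.268e-08). Asns, asparagine synthetase and a target of the pathway, was the heaviest, at 194, 181 and 201 CPM and 548, 619 and 594 CPM (1.61, SE 0.11, limma adjusted p = 1.777e-09). A pair of uORF genes that were light are given here, but they were named after their values were seen and so show no direction for the class. Atf4, the main transcription factor of this response, was at -1.45 (limma adjusted p = 3.78e-07) and Ppp1r15a, a phosphatase subunit that ends it, at -1.75 (limma adjusted p = 1.44e-08). Of 9 polyamine regulators 5 were light and 2 heavy (median -1.05). Oaz1, antizyme, whose synthesis needs a frameshift, was the lightest at -2.75 (limma adjusted p = 5.550e-07). Of 6 mRNAs with an iron-responsive element 3 were light and 2 heavy. Ftl1, ferritin light chain, was at -3.38 (SE 0.42, limma adjusted p = 1.977e-06), from at most 20.4 CPM in the monosome.

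The partners of DDX6 showed no common direction. Over all genes tested 35.8% were heavy and 34.0% light. Of 14 decapping factors and DDX6 partners 3 (21.4%) were heavy and 2 (14.3%) light, with a median of 0.088 that changed sign between settings. Edc3, an enhancer of decapping, was highest at 1.08 (limma adjusted p = 3.043e-06), and Pnrc2 lowest at -0.65 (limma adjusted p = 0.00419). Lsm14a, the most abundant, was at 0.21 (limma adjusted p = 0.268). Of 17 deadenylase genes 6 (35.3%) were heavy and 4 (23.5%) light, so their heavy share was that of genes as a whole. Cnot1, the long scaffold of the CCR4-NOT complex, rose from 76.1, 89.7 and 75.3 CPM to 176, 148 and 183 CPM (1.07, SE 0.13, limma adjusted p = 2.613e-06), and Cnot7, a short catalytic subunit, fell by 1.62 on the log2 scale (SE 0.19, limma adjusted p = 9.860e-07). Of 11 Argonaute, TNRC6 and microRNA processing genes 6 (54.5%) were heavy and 1 (9.09%) light. Ago2, the slicing Argonaute, was at 154, 157 and 185 CPM in the monosome and 398, 429 and 463 CPM in the high polysome (1.38, SE 0.11, limma adjusted p = 1.062e-08). Dgcr8, the partner of Drosha, was the light one (-1.06, SE 0.16, limma adjusted p = 1.503e-05). Of 14 nonsense-mediated decay factors 7 (50.0%) were heavy and 1 (7.14%) light, with the kinase Smg1 highest at 1.83. Of 9 targets of the ESC cell-cycle microRNAs listed in earlier work 2 (22.2%) were heavy and 4 (44.4%) light. They ran from Rbl2 at 0.72 to Mbd2 at -1.24. Cdkn1a was at 0.26 (limma adjusted p = 0.0735), or at 0.361 and called without gradient 1.

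Long non-coding RNAs (lncRNAs) were light. Of 447 tested, 387 were light and 8 heavy, with a median estimate of -2.41. From monosome to low polysome 255 fell, and from low to high polysome 327 fell. Most are near the lower limit of expression, and the size of their difference depends on the pseudocount, with gradient medians of -0.754, -0.671 and -0.677 when 5 CPM instead of 0.5 were added. Of the 15 host transcripts of small nucleolar RNAs all were light (median -3.85), as were 7 of 8 nuclear-retained lncRNAs (median -3.39). Malat1 (ENSMUSG00000092341.2, chromosome 19, 5795690 to 5802672) was at 2940, 3400 and 3390 CPM in the monosome, 961, 716 and 834 CPM in the low polysome and 238, 123 and 201 CPM in the high polysome (-4.17, SE 0.16, limma adjusted p = 1.281e-11). Meg3, an imprinted lncRNA, went from 2830, 2280 and 2180 CPM to 107, 72.8 and 130 CPM (-4.59, SE 0.16, limma adjusted p = 1.102e-11). Of the 5 lncRNA genes with the highest estimates, Cct6a (1.58, limma adjusted p = 2.224e-08) and Zswim6 (1.41, limma adjusted p = 3.314e-07) are typed as processed transcripts in the annotation, though the same symbols name protein-coding genes. The other 3 were Gm1070 (0.86), Brip1os (0.74) and Gm13205 (0.68), the last of which lost its call without gradient 1 (0.328) or gradient 3 (0.695). Brip1os was at no more than 34.4 CPM in the monosome and at 52.5, 48.4 and 51.6 CPM in the high polysome. The KO median of lncRNA ratios was -1.88 ± 0.095 against -1.96 ± 0.097 in WT (SD, n = 3 each, exact permutation p = 0.3, smallest possible 0.1).

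Zinc finger genes were light more often than heavy. Of 257 numbered zinc finger protein genes 102 (39.7%) were light and 37 (14.4%) heavy, with a median of -0.40. Over all genes tested 34.0% were light and 35.8% heavy, so the list differed mainly in having few heavy members. Their median coding length was 1707 nt, against 1359 nt over all genes with one. The list fell at the first step, where 87 were lower and 20 higher. Zfp57, which protects imprinted methylation, was the lightest, at 118, 109 and 103 CPM in the monosome and 10.6, 7.91 and 10.4 CPM in the high polysome (-3.51, SE 0.17, limma adjusted p = 8.034e-11). Zfp462, of very long coding length, was the heaviest at 1.61 (limma adjusted p = 1.371e-06). Of 10 polyadenylated histone variants 4 were light and 3 heavy, with Cenpa at -2.71 and H2afy, the macroH2A gene, at 1.04.

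The position of a message followed the length of its coding region. Among 11769 protein-coding genes with a coding length, heavy genes had a median of 1618 nt, light genes 945 nt and uncalled genes 1437 nt. Spearman's rho between coding length and ratio, across genes and as a description, was 0.308, 0.354 and 0.402 in KO gradients 1 to 3. The number of exons gave 0.268, 0.312 and 0.342, and transcript length 0.278, 0.249 and 0.289. The relation is thus not particular to coding length, and the parts of these features were not separated. Of the 242 genes from 150 to 300 nt, 230 were light and 3 heavy, and the median estimate was -2.08. Genes of 300 to 500 nt had a median of -1.10, and those of 500 to 1000 nt -0.14. Above that medians were between 0.20 and 0.41 up to 5000 nt, and the 486 genes over 5000 nt reached 0.98, with 75.7% heavy. The 2 ends moved at different steps. Genes of 150 to 300 nt had medians of -0.39 at the first step and -1.65 at the second, and genes over 5000 nt 0.87 and 0.12. Dips in the low polysome were most common at 2000 to 3000 nt (11.1% of genes) and rare under 500 nt. The median coding length over all counts of protein-coding genes was 915 to 945 nt in the 3 monosome libraries and 1191 to 1248 nt in the 3 high polysome libraries.

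In WT gradients the same relation was weaker. Spearman's rho was 0.0058, 0.040 and 0.082, and the 3 KO values lay above all 3 WT values (mean difference 0.312, exact permutation p = 0.1, the smallest that 3 against 3 allow). Genes over 5000 nt had a median ratio of 0.943 ± 0.089 in KO and 0.334 ± 0.12 in WT, and genes up to 500 nt -1.26 ± 0.084 and -0.729 ± 0.041 (SD, n = 3 each, exact permutation p = 0.1 for each, the smallest possible). The median difference between genotypes rose from -0.48 for 150 to 300 nt to 0.64 over 5000 nt. Genes of 500 to 1000 nt were at -0.14 in KO and 0.25 in WT. The WT monosome libraries held 2543617 to 4894677 counts, fewer than the KO ones. The part of depth in this difference was not tested.

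**Figure D5:**
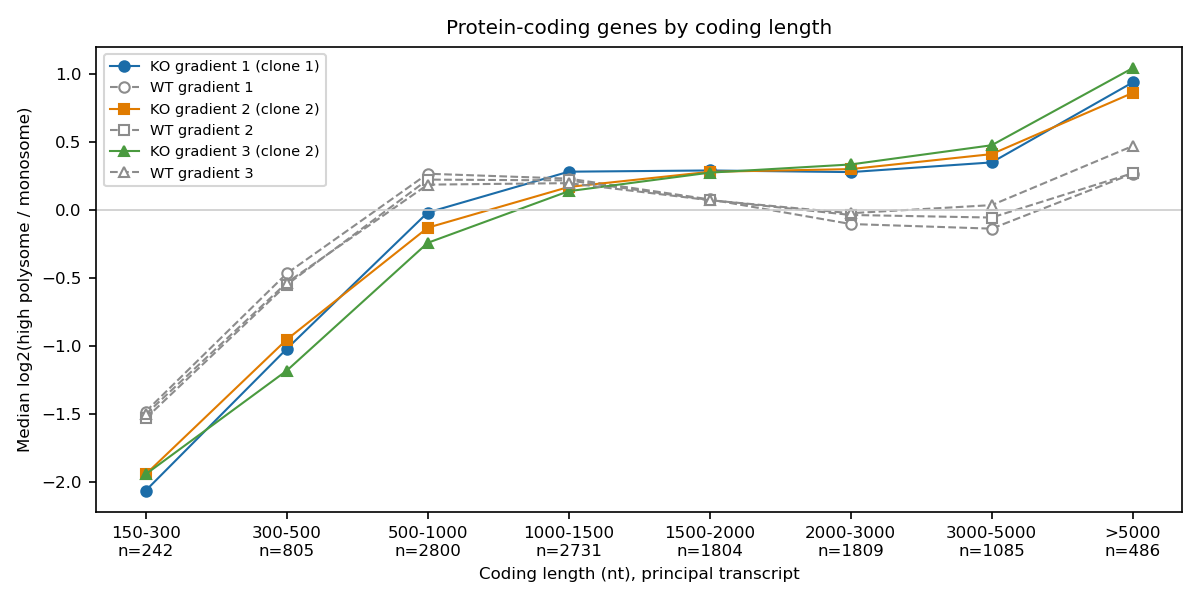
Median log2 ratio of high polysome to monosome level (CPM plus 0.5) of protein-coding genes in bins of coding length, with the number of genes under each bin. KO gradients (filled) rise from near -2 to about 1 across the bins, and WT gradients (open, dashed) run from about -1.5 to between 0.2 and 0.5 with a dip from 2000 to 5000 nt.

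Other sequence features were compared in the same way. Genes without an AUG upstream in the 5′ untranslated region had a median of 0.20 (5838 genes), and genes with more than 4 had -0.10 (688 genes). Within coding lengths of 1000 to 2000 nt the median went from 0.43 without an upstream AUG to 0.20 with 1, 0.11 with 2, 0.0015 with 3 or 4 and -0.20 with more. Heavy genes were 1132 of 2263 in the first of these 5 groups and 59 of 268 in the last. The first step held little of this, with medians of 0.027 and -0.028 at the ends, and the second step held most, with 0.40 and -0.15. Over all lengths the rho of the number of upstream AUGs was -0.0518, -0.0884 and -0.0686, and that of the length of the 3′ untranslated region was 0.167, 0.077 and 0.091. The rho of coding GC content was -0.217, -0.043 and -0.070 in KO gradients 1 to 3 and -0.069, -0.221 and -0.133 in WT gradients, so it varied between gradients of either genotype.

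Loci typed TEC, annotated loci that await experimental evidence, peaked in the low polysome more often than genes as a whole. Of 109 tested, 43 rose and 17 fell from monosome to low polysome (median 0.39), and 82 fell from low to high polysome while the others were not called (median -2.05). In 35 of 109 (32.1%) the low polysome was above both neighbours, against 5.08% of all genes and 12.6% of protein-coding genes over 5000 nt. The most abundant of these loci, Gm49759, Gm42979 and 2010008C14Rik, were at -1.02, 0.099 and 0.685 at the first step. Sizes depend on the pseudocount. Gradient medians over the whole distance were -0.761, -1.28 and -0.676 with 0.5 CPM added and -0.202, -0.334 and -0.191 with 5 CPM.

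In the test of the difference between genotypes, 1552 genes (12.2%) had a ratio that was raised in KO and 1075 (8.46%) a ratio that was lowered. The KO and WT comparisons were fitted together, and each has its own gradients. TOP and elongation factor genes were raised in 16 of 23 cases, the others not being called, with a median of 1.21, from -1.04 in WT to -0.050 in KO. Ribosomal protein genes were raised in 13 of 50 (large subunit) and 10 of 33 (small subunit), and 1 large subunit gene was lowered. Long chromatin remodellers were raised in 19 of 33 and giant messages in 15 of 27, and the others of both lists were not called. Respiratory chain genes were lowered in 38 of 75 and raised in 4, with a median of -0.60. Mitochondrial ribosomal protein genes were lowered in 27 of 77 and small spliceosomal protein genes in 11 of 27, and the others of both lists were not called. The split of calls depended on the scale, with 1344 raised and 1322 lowered on DESeq2 size factors and 1115 and 1596 on library size alone, where the median of all genes moved to -0.10. It also rested on single gradients, with 775 raised and 443 lowered without KO gradient 3, 628 and 710 when WT gradient 1 was left out, and 796 and 443 when WT gradient 2 was.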

How the data were processed

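The authors sequenced 3′ ends of mRNA (QuantSeq, 1 read per 3′ end) from sucrose gradient fractions of 10% to 50%. Per the labels and submitters' processing notes, adapters were trimmed with cutadapt 1.14, reads aligned with STAR 2.5.3a and uniquely aligned reads counted with featureCounts 1.5.3. The deposited values are raw counts per gene, used without division by length. PCR copies are among them. ERCC spike-ins (28 to 169 counts a library) and genes that did not reach 3 CPM in at least 3 libraries were left out. All 18 libraries were fitted with limma 3.58.1 (voom, TMM factors from edgeR 4.0.16, R 4.3.3) with the gradient as a block, and p-values were adjusted over 12705 genes by Benjamini-Hochberg. A gene was called at an adjusted p under 0.05. Ratios per gradient use CPM plus 0.5. There were 3 gradients a genotype. With the gradient as a block, p-values measure how the differences between fractions varied from gradient to gradient. This spread was estimated from all 18 libraries, WT and low polysome included, and not from the KO libraries alone. KO gradients from the same clone are among them, so the spread between edited lines is not measured apart.

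Fractions with the same number come from the same gradient per the labels, which is the pairing. Deviations of same-numbered KO monosome and high polysome libraries correlated at 0.0111, 0.094 and -0.112. Gene types, positions and coding lengths are from a GENCODE annotation on GRCm38 of a later release than the authors', that matched 51274 of 51467 identifiers, with 1 principal transcript a gene. Gene lists and members were chosen with earlier results of these data known. Named genes were Ddx6, the 12 highest and 12 lowest called protein-coding genes with at least 20 CPM and the same sign in each gradient, the most abundant and the highest lncRNAs, the most abundant and extreme members of each list, the 5 most abundant genes of each fraction and the 3 largest genotype differences each way among called protein-coding genes with at least 20 CPM in KO. Some genes that meet this rule are not reported here. The fits were tested on simulated data in which few genes differed between KO high polysome and monosome. Most genes differed in the real data, so the simulation does not test the scaling there. Alternatives were the scaling, edgeR and DESeq2 1.42.0 tests, the filter, the block and leaving out each gradient.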

Additional observations from a re-analysis of the deposited data

Results flagged for a closer look

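Listed here are Ddx6 and the genes named for their level in a fraction, for their place among the heaviest, lightest or non-coding RNAs, or for their genotype difference, where the test of the difference itself, the KO log2 ratio of high polysome to monosome minus the WT ratio, passed an adjusted p under 0.05 in limma. A further 33 genes named only as list members also passed, 25 raised and 8 lowered, and their differences are not given. Among called protein-coding genes with at least 20 CPM in KO the largest positive differences were Zbtb7a (2.43), Bdkrb2 (2.39) and Eef2 (2.17). Bdkrb2 stood at no more than 1.59 CPM in each WT monosome and high polysome library, so its WT ratio (-0.63, SE 0.72) rests on few counts. The 11 heaviest KO genes named above were all positive. They were chosen on the same KO libraries, so this is no separate evidence. Their differences were 1.62 for Pkd1, 1.19 for Ptprf, 1.18 for Igf1r, 1.17 for Crebbp, 1.15 for Slc2a3, 1.09 for Kmt2d, 1.04 for Piezo1, 0.898 for Aplp2, 0.822 for AI464131, 0.774 for Gpc4 and 0.595 for Igsf9b. Among abundant genes and lncRNAs the differences were 1.32 for Zswim6, 1.02 for Rps3, 0.957 for Cdh1 and 0.654 for 2410006H16Rik.

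Negative differences were found for Frs3 (-2.96), Rpa3 (-2.94), Sdhd (-2.65), Wsb1 (-0.924), Ddx6 (-0.855) and Cd63 (-0.807). Frs3 and Rpa3 varied widely between KO gradients, as given above. Sdhd did too, with KO log2 ratios of -0.386, -0.340 and -2.51, and its KO difference was not called (-1.09, SE 0.57, limma adjusted p = 0.0987). Groups of 3 libraries are too small for a test of single samples that stand apart.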

How the results depend on the processing

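Requiring a log2 difference over 1 left 2060 higher and 2762 lower genes in the high polysome against the monosome, 592 and 1083 in the low polysome against the monosome, 1046 and 1961 in the high against the low polysome, and 664 raised and 287 lowered in the difference between genotypes. Without the filter on low counts 1020 genes were raised in KO and 1090 lowered. Leaving out 1 gradient at a time gave 628 to 1633 raised genes and 443 to 1267 lowered genes, the lowest raised count being without WT gradient 1 and the lowest lowered counts without KO gradient 3 or WT gradient 2. The high polysome against monosome counts moved less, with 4140 to 4526 higher and 3780 to 4388 lower genes, and the cause of these shifts was not tested. The share of genotype calls that were raised was 59.1%, against 50.4% on DESeq2 size factors, 41.1% on library size alone, 49.1% by the DESeq2 Wald test, 48.3% without the filter and 46.9% without WT gradient 1.

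Without the replicate block, 4442 genes were higher and 4266 lower in the high polysome against the monosome, and 97.4% of the calls were kept. The unpaired fit gave 2590 and 2638 for low polysome against monosome, 3746 and 3563 for high against low polysome, and 1357 raised and 901 lowered between genotypes, so the pairing changed no count by over 1.5 times. Over 141 named genes and 1547 refits, 31 lost the call, in 13 genes, 9 gained it and 0 turned direction. The genes with losses were Ddx6, Srsf2, Prdm14, Cdkn1c, Gm13205, Farsa, Atp5g3, Snrpd3, Rps27a, Mrpl17, Pfkm, Rbm8a and Chd2, and the first 5 have their values above. Of 48 list medians 4 changed sign in some setting, those of the elongation factor and TOP list, histone variants, DDX6 partners and all genes. The lncRNA median ran from -2.51 to -0.701, the latter with the larger pseudocount. Depth limits the genes at a few CPM, and genes with near-identical copies are undercounted.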
